A study of Mus musculus with 56 samples.

Results

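The genes described here are those whose hippocampal signal differed most from mouse to mouse inside every experimental group. They were chosen by their spread: after log2 transformation and quantile normalization of the array signals, a gene belonged to the set when the standard deviation (SD) between mice was at least 0.5 in each of 4 groups. Of 9893 genes tested, 32 met this, which is 0.323%. The SDs therefore chose the genes and are given as a description, with no test. The genes just inside the limit were Bgn and Elovl4, both with a smallest group SD of 0.503, and Spink8 with 0.504, and the genes just outside were Cox8b (0.498), Acta2 (0.486) and Gtpbp4 (0.485).

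The mice were male outbred NMRI animals, adult and older than 12 weeks, with 1 array for the hippocampus of each of 56 mice. In 50 of them status epilepticus had been induced with pilocarpine at 300 mg/kg after N-methylscopolamine and limited with diazepam, and these chronically epileptic mice were then gavaged daily with vehicle (17 mice), with PLX3397 at 3 mg/kg (18 mice) or with PLX3397 at 30 mg/kg (15 mice). PLX3397 inhibits Csf1R, the receptor that microglia need for survival. The remaining 6 mice were naive, had no pilocarpine and received vehicle. The sample labels give 7 days of dosing, whereas the design text gives 2 weeks. The series asked how the epileptic hippocampus responds to Csf1R inhibition.

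An outbred stock is kept so that its animals carry different combinations of alleles, unlike an inbred strain in which they are nearly identical. The arrays read each gene through short oligonucleotide probes, so a probe reports the amount of one stretch of a transcript rather than of the whole gene. The hippocampus is cut out beside the lateral ventricle, where the choroid plexus, the epithelium that makes cerebrospinal fluid and secretes transthyretin, is attached along the fimbria. In a bulk tissue sample fewer cells of a type and less RNA per cell cannot be told apart. No genotype was read here, and the relation of these signals to inherited differences was not tested.

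Over the whole series, 44.3 to 49.8% of probes were detected per array and the median signal lay between 109.2 and 150.8. The number of arrays limits the precision of every comparison. The epileptic vehicle array of replicate 6 and the 3 mg/kg array of replicate 18 correlated least with the other arrays, and without both 30 of the 32 genes met the limit. The 32 genes lay on 13 chromosomes, and their mean log2 signal ran between 7.35 and 13.08 with a median of 8.72, against a median of 7.93 over all genes tested. Their SD pooled within groups had a median of 0.85 and a range of 0.55 to 1.49, whereas the median over all genes tested was 0.12. The labels carry a running sample number, and removing the mean of each set of 8 consecutive numbers left the pooled SD at 0.90 to 1.05 times its value, with Mipep at the low end and Bgn at the high end.

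The signal of many of these genes fell into separate levels. To describe this, the 56 values of a gene were sorted and the widest gap with at least 6 mice on either side was found, and a signal was called split when this gap was at least 0.5 on the log2 scale and both sides held mice of at least 3 groups. By this measure 19 of the 32 genes had a split signal, and over all 9893 genes only 4 others did, namely Atp6v1d, Bdnf, Gnaq and Hspb1. A wide gap with at least 6 mice on either side also widens the SD by which the 32 genes were chosen. The contrast with the other genes therefore follows in part from that choice. Each of the 19 had mice at both levels in all 4 groups, which the limit on the SD in each group largely fixes. When the gap had to reach 0.75, 12 of the 19 kept it.

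Zfp365, which encodes a zinc finger protein expressed in the brain, had the widest gap. Its signal lay between 6.85 and 7.21 in 38 mice and between 9.93 and 10.94 in the other 18, and no mouse fell in the 2.72 log2 units between. Within groups the lowest, median and highest values were 6.89, 7.01 and 10.53 in epileptic vehicle mice, 6.85, 7.02 and 10.20 on 3 mg/kg, 6.91, 7.14 and 10.35 on 30 mg/kg, and 7.02, 10.37 and 10.94 in naive mice. The upper level therefore held 3 of 17 epileptic vehicle mice, 5 of 18 mice at 3 mg/kg, 6 of 15 mice at 30 mg/kg and 4 of 6 naive mice. All 18 mice of the upper level were detected above background, which the array software scores with a detection p under 0.05, and 10 of the 38 mice of the lower level were, so that the width of the gap is not a measured fold of the transcript. Inside the levels the SD was 0.15, against 1.55 over all mice.

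Enpp5, a member of the ectonucleotide pyrophosphatase and phosphodiesterase family, had a gap of 2.71 with the proportions turned round. Only 11 mice lay at the lower level, between 6.96 and 7.19, and 45 lay at the upper level. The mice at the lower level were 5 of 17 in the epileptic vehicle group, 4 of 18 given 3 mg/kg, 1 of 15 given 30 mg/kg and 1 of 6 naive mice. Its upper level spread over 1.49 log2 units, more widely than that of Zfp365, which covered 1.01.

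Psmd8, a subunit of the regulatory particle of the proteasome, had 3 levels. There were 42 mice between 7.13 and 7.49, 11 mice between 9.88 and 10.28, and 3 mice between 10.88 and 11.16. The middle level held 5 epileptic vehicle mice, 1 mouse given 3 mg/kg, 3 given 30 mg/kg and 2 naive mice, and the 3 highest mice had all received PLX3397. All 42 mice of the lowest level were still detected above background. Tomm22, a receptor of the translocase in the mitochondrial outer membrane, resembled Psmd8 in its proportions, with 42 mice at the lower level (median 7.02) and 14 at the upper level (median 9.68) across a gap of 2.27. Of the 42 lower mice of Tomm22 only 9 were detected. Its upper level held 4 of 17 epileptic vehicle mice, 5 of 18 at 3 mg/kg, 4 of 15 at 30 mg/kg and 1 of 6 naive mice.

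In the next 4 genes the upper level was the more common one. Pnrc2, an adaptor in messenger RNA decay, had 36 of 56 mice at the upper level across a gap of 1.68. Cops8, a subunit of the COP9 signalosome, had 39 across a gap of 1.58. Abhd16a, a phosphatidylserine lipase, had 41 across a gap of 1.56, and Pdrg1 had 40 across a gap of 1.24. The lower level of all 4 was compact, spanning 0.18 to 0.26 log2 units, and was near the detection limit: 5 of 20 mice were detected for Pnrc2, 6 of 15 for Abhd16a, 0 of 17 for Cops8 and 0 of 16 for Pdrg1. The upper level of the same genes spanned 1.25 to 1.76 log2 units.

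**Figure D1:**
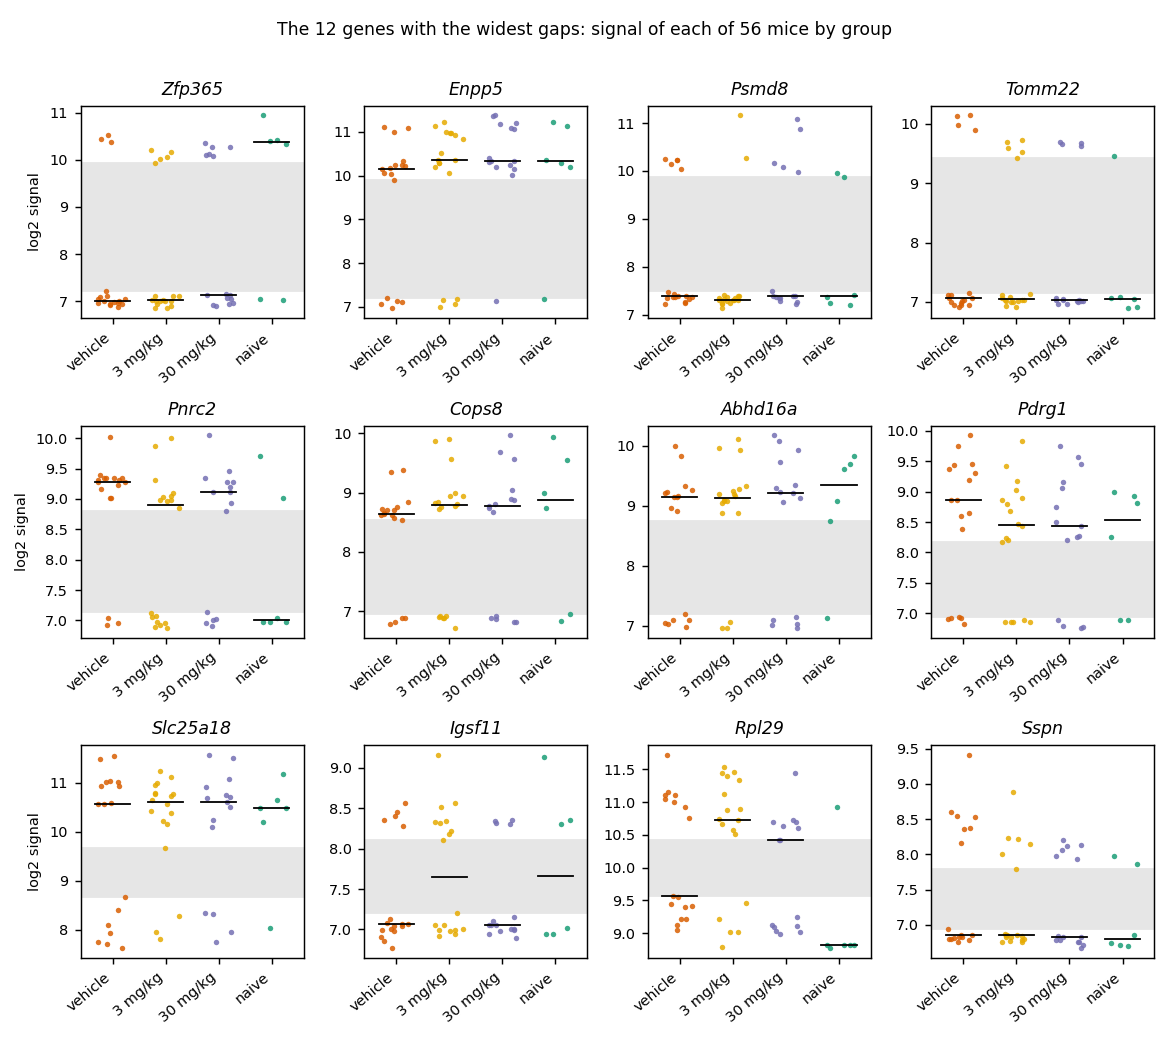
Log2 signal (y axis) of each of 56 mice (points) in epileptic mice given vehicle, 3 mg/kg or 30 mg/kg PLX3397 and in naive mice (x axis), for the 12 genes with the widest gaps; black lines are group medians and grey bands the first gap from below. No mouse lies inside the band, which is 2.72 log2 units wide for Zfp365, and every group has mice on both sides.

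Slc25a18, a mitochondrial glutamate carrier, had 15 mice at the lower level (median 7.96) and 41 at the upper level (median 10.73), and all mice of both levels were detected. Igsf11, an adhesion molecule of the immunoglobulin superfamily, and Sspn, the sarcospan of the dystrophin-glycoprotein complex, each had 35 mice at the lower level and 21 at the upper level, with gaps of 0.91 and 0.85. Of the 35 lower mice only 4 were detected for Igsf11 and 0 for Sspn, so that these gaps are not measured folds. Rpl29, a protein of the large ribosomal subunit, split the mice most evenly, with 26 below and 30 above a gap of 0.86. The 30 upper mice were 8 of 17 epileptic vehicle mice, 13 of 18 at 3 mg/kg, 8 of 15 at 30 mg/kg and 1 of 6 naive mice.

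The remaining 7 split signals had gaps under 0.75 and were lost with that limit. They were Sema5a, a guidance semaphorin (gap 0.73, 7 mice below and 49 above), Gdpd3, a lysophospholipase (0.70, 9 and 47), Twsg1, a binding protein of bone morphogenetic proteins (0.70, 10 and 46), Fgfr1op2 (0.65, 6 and 50), Mipep, a peptidase of the mitochondrial matrix (0.62, 42 and 14), Adat2, a deaminase of transfer RNA (0.54, 24 and 32), and Ttr. Ttr had 12 mice below a gap of 0.66, but these 12 were strung out over 3.19 log2 units and did not form a compact level. A further gap of 0.56 divided them into 7 mice between 8.83 and 10.81 and 5 between 11.38 and 12.02. When a mixture of normal distributions was fitted in place of the gap, 17 of the 19 genes again had more than 1 component, Gdpd3 and Fgfr1op2 did not, and Hmgn3, Kcne2, Lcn2, Pygb and Wfdc2 were added.

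The other 13 genes varied without a gap of 0.5. They were Wfdc2, Kcne2, Clic6 and Ecrg4, which varied together with Ttr, then Dusp7, Hmgn3 and Elovl4, which varied with neighbours on their chromosome, and Pygb, Lcn2, Ccdc3, Arc, Spink8 and Bgn. For Pygb, the brain form of glycogen phosphorylase, the lowest, median and highest values were 7.55, 8.96 and 10.28 in epileptic vehicle mice, 7.45, 8.11 and 9.98 on 3 mg/kg, 7.58, 8.04 and 9.91 on 30 mg/kg, and 7.95, 9.49 and 10.16 in naive mice. Its groups overlapped over nearly their whole range, and its signal did split with a limit of 0.4 on the gap.

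Other probes of the same genes were not used to choose them. Of the 32 genes, 23 had only 1 probe on the array and 9 had another. In 6 genes a further 7 probes passed the filter of detection on at least 6 arrays, and their correlation with the brightest probe, over 56 mice with group means removed, had a median of 0.95. The median was 0.42 over all 3372 such probes, and 0.77 over the 347 belonging to other genes in the highest decile of pooled SD. An SD of at least 0.5 in every group was reached by 3 of these 7 probes, for Rpl29, Sema5a and Hmgn3, and by 5 of the 3372, or 0.148%.

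The other probe of Rpl29 divided the mice as the brightest one did. All 26 mice of the lower level lay between 6.87 and 7.17 on it and all 30 of the upper level between 8.07 and 9.10, so that 56 of 56 mice fell on the same side, and inside the levels the correlation of both probes was 0.03 below (26 mice) and 0.85 above (30 mice). Correlations inside levels, here and below, were taken on the log2 signals without removing group means. For Sema5a the same held in 56 of 56 mice, and the probes were correlated at 0.99 among the 49 mice of the upper level. In Hmgn3, a protein that binds nucleosomes, both probes were correlated at 0.99 (Spearman rho 0.95).

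In the other 3 genes the further probes shared the pattern in part or not at all. In Igsf11 the 21 mice of the upper level were the 21 highest on one further probe, with a correlation of 0.88 among them, whereas another probe, detected on 52 arrays, stayed between 7.05 and 7.36 in all mice and had a correlation of -0.18 with the brightest one among the 21. In Fgfr1op2 the other probe was detected on all 56 arrays with a pooled SD of 0.16, and its correlation with the brightest probe was 0.19 among the 50 upper mice. In Wfdc2 the correlation was 0.74, with a pooled SD of 0.11 on the dimmer probe. The further probes of Pnrc2, Mipep and Twsg1 were detected on 0 arrays and say nothing of these signals.

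Most of the 32 genes were not joined with others of the set. With group means removed, average linkage joined 11 of them into groups with a mean correlation of at least 0.6, namely 1 group of 5 and 3 pairs, and left 21 on their own. Among pairs that were not joined the highest correlation was 0.42, for Tomm22 with Pdrg1. These values of r are over 56 mice. All values of r share the same arrays and normalization and are descriptions.

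**Figure D2:**
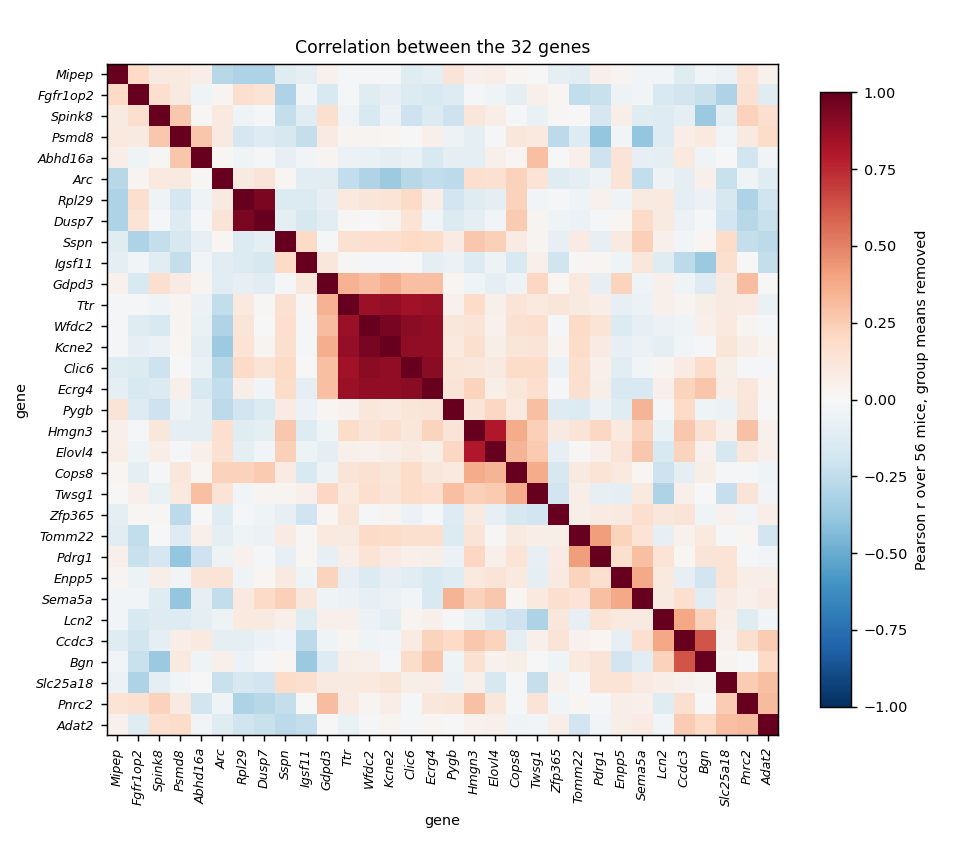
Pearson correlation between the 32 genes over 56 mice with group means removed, with genes on both axes in the order of average linkage and the colour scale running between -1 and 1. The red block is the group of 5 genes around Ttr, with r between 0.84 and 0.95, and the smaller red blocks are Rpl29 with Dusp7, Hmgn3 with Elovl4 and Ccdc3 with Bgn.

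The group of 5 consisted of Ttr, Wfdc2, Kcne2, Clic6 and Ecrg4. Wfdc2 encodes a secreted protein with whey acidic protein domains. Ttr encodes transthyretin, the carrier of thyroxine and retinol, Kcne2 a subunit of potassium channels, Clic6 an intracellular chloride channel protein and Ecrg4 a secreted peptide precursor, and these 4 are abundant in choroid plexus epithelium. The lowest, median and highest log2 signals of Ttr were 10.66, 13.46 and 13.90 in epileptic vehicle mice, 10.34, 13.77 and 14.19 on 3 mg/kg, 10.16, 13.81 and 14.32 on 30 mg/kg, and 8.83, 13.80 and 14.16 in naive mice. Most mice of every group lay close to the upper end, with a tail of low mice in each.

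Clic6 lay at 7.43, 8.64 and 9.70 in epileptic vehicle mice, at 7.66, 8.98 and 11.20 on 3 mg/kg, at 7.48, 9.09 and 10.57 on 30 mg/kg, and at 7.25, 9.97 and 10.85 in naive mice. Kcne2 lay at 7.10, 8.77 and 9.64 in epileptic vehicle mice, at 7.06, 8.69 and 9.91 on 3 mg/kg, at 7.10, 8.67 and 9.31 on 30 mg/kg, and at 6.94, 8.50 and 8.98 in naive mice. Wfdc2 lay at 7.13, 8.79 and 9.65 in epileptic vehicle mice, at 7.18, 8.83 and 10.20 on 3 mg/kg, at 6.93, 8.83 and 9.93 on 30 mg/kg, and at 6.94, 8.32 and 9.17 in naive mice. All 3 spread widely in every group and all groups overlapped. The 10 correlations among the 5 genes had a median of 0.89 and ran between 0.84 and 0.95, with Spearman rho between 0.81 and 0.90, and the lowest was 0.83 once the set means of sample numbers were also removed.

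Mice at the low end were shared by most of the 5 genes. Averaged over the 5 and expressed as the deviation from the group mean, the highest mouse was replicate 17 at 3 mg/kg with 1.54, followed by naive replicate 4 with 1.29, and the lowest were naive replicate 1 with -1.89 and replicate 14 at 30 mg/kg with -1.85. Of the 7 lowest mice in Ttr, 5 were among the 7 lowest in Wfdc2, 6 in Kcne2, 5 in Clic6 and 5 in Ecrg4. Of the 6 highest mice in Ttr, 2 were among the 6 highest in Wfdc2, 3 in Kcne2, 2 in Clic6 and 2 in Ecrg4.

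Most of the measured choroid plexus genes outside the set correlated with them. A list of 20 choroid plexus markers had 14 measured, of which Ttr, Clic6 and Kcne2 were in the set and 11 were not, and the mean of these 11 correlated at 0.78 with Ttr, 0.89 with Wfdc2, 0.89 with Kcne2, 0.98 with Clic6 and 0.88 with Ecrg4. Taken singly, 8 of the 11 had a correlation with Ttr of at least 0.6, with Calml4 highest at 0.86, whereas Slc13a4 had 0.50, F5 0.37 and Tmem72 0.20. The summed signal of the 11 ran between 1910 and 3620 in epileptic vehicle mice, 1880 and 7720 on 3 mg/kg, 1760 and 5390 on 30 mg/kg and 1560 and 4240 in naive mice. Among them the transcription factor Otx2 lay between 6.98 and 8.28 and the folate receptor Folr1 between 6.87 and 10.04 on the log2 scale. The 5 measured ependymal and ciliary genes correlated at 0.62 to 0.79 with the 5 genes. The amount of choroid plexus in each sample was not measured, and its part in these signals was not tested.

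Ttr also had an inverse partner. Fam171a1, on another chromosome, had a correlation of -0.91 with Ttr (rho -0.81, -0.90 without the 2 mice farthest from the median), and the correlation lay between -0.98 and -0.90 within the 4 groups. Fam171a1 had medians of 7.29 in epileptic vehicle mice, 7.24 on 3 mg/kg, 7.31 on 30 mg/kg and 7.36 in naive mice. It reached 8.17 in epileptic vehicle mice, 8.29 on 3 mg/kg, 8.43 on 30 mg/kg and 8.51 in naive mice, in animals with little Ttr.

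**Figure D3:**
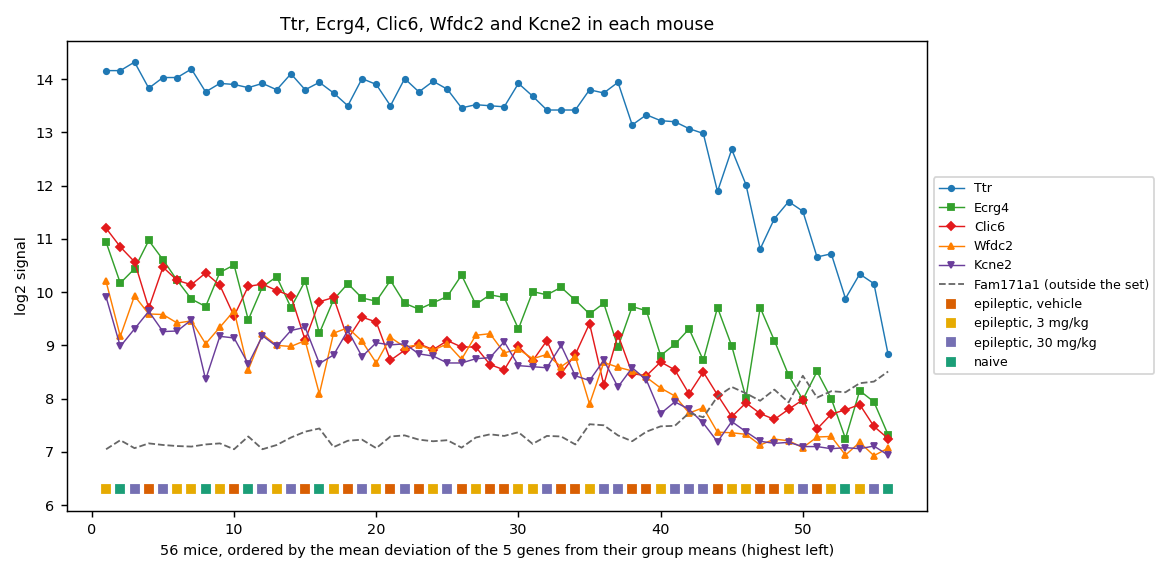
Log2 signal (y axis) of Ttr, Ecrg4, Clic6, Wfdc2 and Kcne2 (lines with markers) and of Fam171a1, which is outside the set (dashed), in 56 mice ordered by the mean deviation of the 5 genes from their group means (x axis); coloured squares give the group of each mouse. The order was made from these 5 genes with group means removed. Their common decline and the presence of all 4 groups towards both ends follow largely from it. Fam171a1, which was not used for the order, is highest where Ttr is lowest.

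The stretches upstream of the start sites of Wfdc2, Kcne2 and Ecrg4 are shown because these genes varied as one, and were chosen after their values were seen. Ttr and Clic6, of the same group, are not shown and were not searched. For Wfdc2 and for Kcne2, 2 windows were listed and only the first was used. Each is 250 bases long on the plus strand of build GRCm38.p6 as listed by RefSeq, at chr2:164562465-164562714, chr16:92292139-92292388 and chr1:43730352-43730601. Capitals mark a GC box, GGGCGG, read on either strand.
Wfdc2: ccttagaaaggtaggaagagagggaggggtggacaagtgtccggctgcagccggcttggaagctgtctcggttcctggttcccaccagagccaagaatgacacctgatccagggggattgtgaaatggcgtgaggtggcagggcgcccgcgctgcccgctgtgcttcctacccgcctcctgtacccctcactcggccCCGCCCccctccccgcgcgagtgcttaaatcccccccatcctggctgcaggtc
Kcne2: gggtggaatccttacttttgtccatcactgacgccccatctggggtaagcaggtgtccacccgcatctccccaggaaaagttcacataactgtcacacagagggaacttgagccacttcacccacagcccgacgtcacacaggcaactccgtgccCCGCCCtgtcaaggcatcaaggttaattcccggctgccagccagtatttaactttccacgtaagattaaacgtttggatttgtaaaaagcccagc
Ecrg4: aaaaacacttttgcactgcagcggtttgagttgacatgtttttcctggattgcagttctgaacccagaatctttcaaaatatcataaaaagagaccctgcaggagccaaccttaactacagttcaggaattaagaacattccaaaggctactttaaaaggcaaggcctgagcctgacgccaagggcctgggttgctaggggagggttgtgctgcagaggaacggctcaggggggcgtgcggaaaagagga
A GC box was present once in Wfdc2 and once in Kcne2 and was not found in Ecrg4, and 32.7% of all 32851 upstream windows of this length held one. Neither CCAAT, present in 33.8% of windows, nor TAATCC, a sequence that homeodomain proteins of the Otx family bind and which 6.25% of windows held, was in any of the 3, on either strand. No other motif was searched.

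Several genes varied with genes close by on the chromosome. For 11 of the 32 genes, or 34.4%, the tested gene with the strongest correlation lay on the same chromosome, against 8.76% of all genes tested and 27.3% of the 77 other genes with a pooled SD of at least 0.5. In 10 of the 11 at most 50 protein-coding genes lay between, and all 11 were outside the group around Ttr. Rpl29 and Dusp7 were each other's strongest partner, as were Hmgn3 and Elovl4, so both genes of each pair are counted among the 11.

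Rpl29 and Dusp7, a phosphatase of the MAP kinase Erk, are neighbours on chromosome 9 with 0 protein-coding genes between them. The 30 mice of the upper level of Rpl29 were the 30 highest in Dusp7, with Dusp7 between 9.41 and 10.66 in them and between 8.15 and 9.20 in the other 26. Inside the levels the correlation was 0.68 among the 30 upper mice and -0.19 among the 26 lower mice. Acy1, also next to Rpl29 in the list of protein-coding genes, ran the other way, and 23 of the 30 upper mice were among its 30 lowest.

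Tomm22 on chromosome 15 had the same relation with Mgat3, a glycosyltransferase, with 13 genes between. The 14 mice of the upper level of Tomm22 were the 14 highest in Mgat3, between 8.35 and 8.92, and the other 42 lay between 7.29 and 7.87. Mgat3 was not in the set, and among the 14 upper mice its correlation with Tomm22 was -0.61. Hmgn3 and Elovl4, an elongase of very long chain fatty acids, lie on chromosome 9 with 2 genes between and had a correlation of 0.80 (rho 0.61, 0.76 without the 2 farthest mice). Within groups this was 0.80 in epileptic vehicle mice, 0.91 on 3 mg/kg, 0.55 on 30 mg/kg and 0.97 in naive mice.

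Other pairs on one chromosome ran in opposite directions. Spink8, a serine peptidase inhibitor used as a marker of pyramidal cells, had a correlation of -0.73 with Shisa5 on chromosome 9 (rho -0.61, 21 genes between). Within groups it was -0.84 in epileptic vehicle mice, -0.71 at 3 mg/kg, -0.72 at 30 mg/kg and -0.28 in naive mice. Gdpd3 and Cd2bp2 on chromosome 7 had a correlation of -0.78 over all mice with group means removed, and of -0.72 among the 47 upper mice of Gdpd3. The median of Cd2bp2 was 10.25 in naive and 9.72 in epileptic vehicle mice, a difference left in the value of -0.72. For Fgfr1op2 and Stk38l on chromosome 6 the correlation was -0.63 over all mice with group means removed, and -0.49 among the 50 upper mice of Fgfr1op2. Of the 21 upper mice of Sspn, 15 were among the 21 lowest in Itpr2, its next gene on chromosome 6. Among the 21 upper mice of Sspn, however, the correlation with Itpr2 was positive, at 0.33. Among the 35 lower mice it was 0.46, but 0 of these were detected above background in Sspn, so that their values have no reliable order. All these partners were picked as the strongest of all genes tested, and their correlations are descriptions.

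Proximity on the chromosome did not always go with common variation. Sspn and Fgfr1op2 have 2 genes between them and had a correlation of -0.31, and 11 of the 21 upper mice of Sspn were among the 21 lowest in Fgfr1op2. Kcne2 and Clic6, in the group around Ttr, have 5 genes between them on chromosome 16 and were correlated at 0.89, but Ttr, Wfdc2 and Ecrg4 lie on 3 other chromosomes. Most of the 32 genes, among them Zfp365, Enpp5 and Pnrc2, had their strongest partner on another chromosome. Of the 19 genes with a split signal, 7 had it on the same chromosome.

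**Figure D4:**
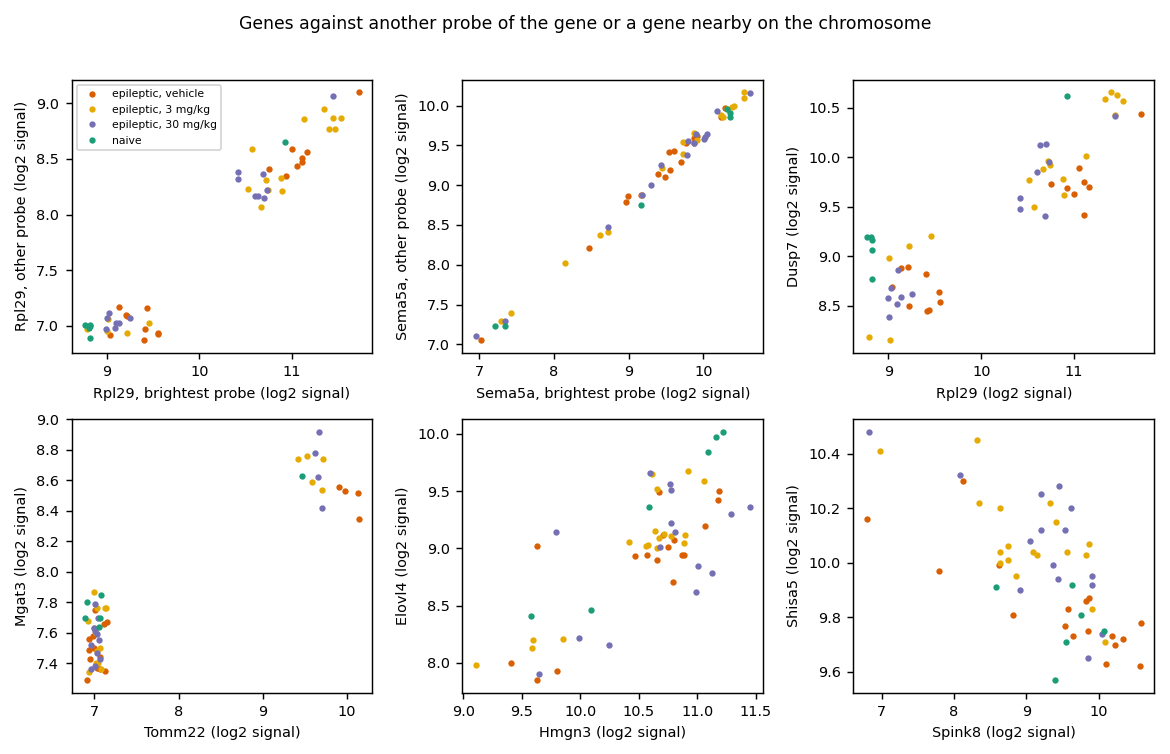
Log2 signal of 6 pairs in 56 mice (points, coloured by group): Rpl29 and Sema5a on the brightest probe (x axis) against the other probe (y axis), then Rpl29 against Dusp7, Tomm22 against Mgat3, Hmgn3 against Elovl4 and Spink8 against Shisa5. The Rpl29 and Tomm22 panels fall into separate clouds of 26 and 30 and of 42 and 14 mice, and Spink8 declines as Shisa5 rises, with r of -0.73.

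Outside the group around Ttr, 3 genes correlated at 0.6 or more with the mean of a list of marker genes, namely Arc, Bgn and Ccdc3. Arc, an immediate early gene that neurons transcribe after strong activity, correlated at 0.84 with the mean of 15 other immediate early genes, but its rho was 0.54. Against Fos its correlation was 0.82, and 0.57 without the 2 mice farthest from the median. Replicates 18 and 9 at 3 mg/kg were the highest in Arc, at 11.85 and 11.23, and also in Fos, at 9.50 and 8.91. Arc lay at 8.39, 9.22 and 10.14 in epileptic vehicle mice, 8.45, 8.88 and 11.85 on 3 mg/kg, 8.18, 8.89 and 10.23 on 30 mg/kg, and 9.12, 10.11 and 10.70 in naive mice, and these groups overlapped. The 3 mg/kg array of replicate 18 is one of the 2 least like the rest.

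Bgn, the proteoglycan biglycan, correlated at 0.78 with a list of 15 reactive astrocyte genes and at 0.86 with Vim (rho 0.87). Ccdc3, a secreted coiled-coil protein, correlated at 0.62 with 19 microglial and phagocyte genes and at 0.63 with Bgn (rho 0.58), and the pair was joined neither by rho nor without the 2 arrays least like the rest. Lcn2, a lipocalin that binds iron-carrying siderophores, correlated at 0.78 with Lrg1 (rho 0.80). Lcn2 had a long upper tail, with lowest, median and highest values of 6.82, 7.34 and 9.34 in epileptic vehicle mice, 6.85, 7.23 and 9.41 on 3 mg/kg, 6.78, 7.02 and 9.61 on 30 mg/kg, and 6.8, 7.34 and 9.07 in naive mice. These cell types were not counted, and their part in the signals was not tested.

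With 0.323% of all genes in the set, fewer than 1 gene would fall into a list of these sizes on average, so that a count of 0 says little. Of 9 measured genes with copy number or null alleles described in laboratory mice, 0 were in the set, as were 0 of 17 genes of the major histocompatibility complex and antigen presentation, 0 of 16 meningeal genes, 0 of 15 thalamic and habenular genes, 0 of 13 clock genes and 0 of 6 genes of red blood cells. Among 16 pyramidal cell genes Spink8 was in the set, among 16 immediate early genes Arc was, and among 16 reactive astrocyte genes Lcn2 was.

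The differences between groups were not used by the rule and were tested with limma across all 9893 genes. Genes chosen for a large spread have a large error, so a difference has to be larger to pass: the median standard error was 0.39 for the 32 genes and 0.06 for all genes in epileptic vehicle against naive mice. There 5 of the 32 passed an adjusted p of 0.05, against 49% of all genes tested, and 7 of the 32 had an unadjusted p under 0.05, against 54.1% of all. The median size of the log2 fold change was 0.41 for the 32 genes and 0.14 for all genes. In this comparison 4 were higher in epileptic vehicle mice (22.6% of all genes) and 1 was lower (26.5% of all genes).

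Ccdc3 lay at 9.57, 10.47 and 11.80 in epileptic vehicle mice (lowest, median and highest) and at 8.54, 9.43 and 9.98 in naive mice. The highest naive mouse lay below the epileptic vehicle median, and 3 of the 17 epileptic vehicle mice lay below it. It was higher in epileptic vehicle mice by 1.21 ± 0.25 on the log2 scale (SE, 17 against 6 mice, limma adjusted p = 6.13e-05). Bgn lay at 9.66, 10.73 and 12.40 in epileptic vehicle mice and at 8.97, 9.21 and 10.04 in naive mice, with 3 of the 17 epileptic vehicle mice below the highest naive mouse, and was higher by 1.29 ± 0.30 (limma adjusted p = 0.000294).

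The other 3 calls rested on more widely overlapping groups. Ecrg4 lay at 8.51, 9.90 and 10.97 in epileptic vehicle mice and at 7.25, 9.36 and 10.17 in naive mice, a difference of 1.03 ± 0.38 (limma adjusted p = 0.0195). The call was lost without naive replicate 1 or naive replicate 2, with adjusted p of 0.128 and 0.135, and these were the 2 lowest of all mice in Ecrg4, at 7.32 and 7.25. Of the 14 choroid plexus markers measured, 1 was higher in epileptic vehicle mice (Calml4, 0.61 ± 0.23, limma adjusted p = 0.0241) and 2 were lower, Kl with a log2 fold change of -0.82 ± 0.27 (limma adjusted p = 0.00907) and F5 with -0.15 ± 0.05 (limma adjusted p = 0.00835), and Clic6 differed by -0.75 ± 0.44 (limma adjusted p = 0.162). Their part in the difference of Ecrg4 was not tested. Rpl29 lay at 9.04, 9.56 and 11.72 in epileptic vehicle mice and at 8.77, 8.82 and 10.92 in naive mice, a difference of 1.01 ± 0.42 (limma adjusted p = 0.0437), and the call was lost when any 1 of 13 mice was left out, epileptic vehicle replicates 2, 3, 4, 9, 10, 11, 12 and 17 and naive replicates 1, 2, 3, 4 and 6, with adjusted p up to 0.0901. Its neighbour Dusp7 differed by -0.15 ± 0.32 (limma adjusted p = 0.736).

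Zfp365 was lower in epileptic vehicle mice, with a log2 fold change of -1.74 ± 0.69 (SE, limma adjusted p = 0.0312), and 3 of 17 epileptic vehicle mice and 4 of 6 naive mice lay at its upper level. These 4 naive mice were replicates 2, 3, 5 and 6, and leaving out any one of them ended the call, with adjusted p of 0.0817 to 0.107. With normexp background correction the log2 fold change was -2.77 (limma adjusted p = 0.0341), and most signals of the lower level were not above background. Pnrc2 differed by 1.12 ± 0.51 (limma adjusted p = 0.0637) and Arc by -0.68 ± 0.31 (limma adjusted p = 0.0658), both short of the threshold.

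**Figure D5:**
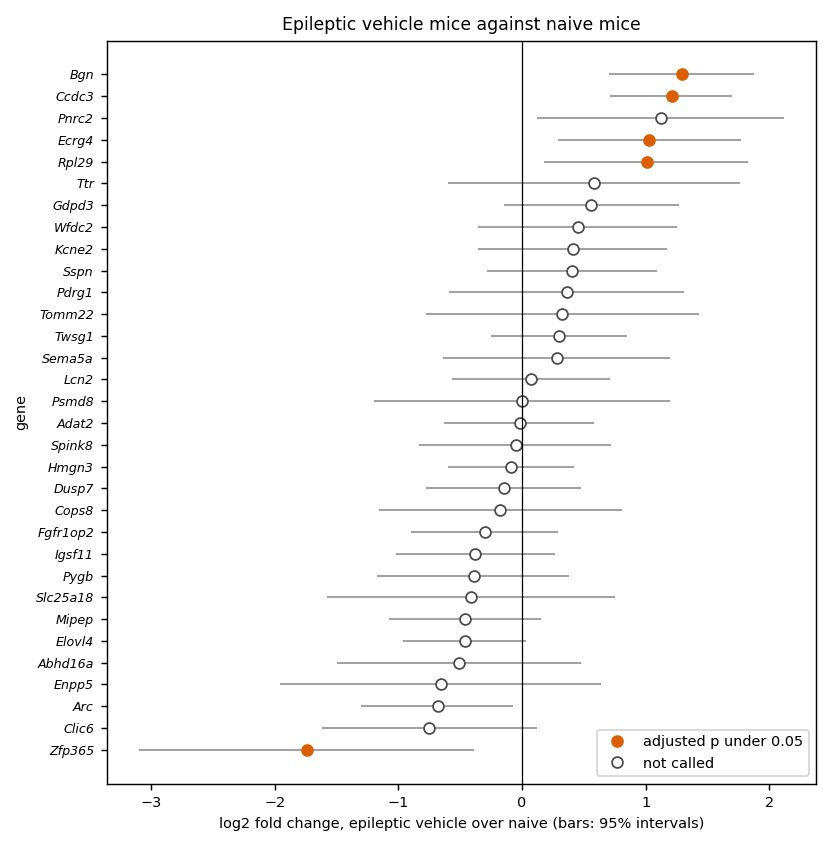
Log2 fold change of epileptic vehicle over naive mice (x axis, bars 95% intervals, 17 against 6 mice) for each of the 32 genes (y axis), filled where the limma adjusted p was under 0.05. Bgn, Ccdc3, Ecrg4 and Rpl29 are filled on the right, at 1.01 to 1.29, and Zfp365 on the left, at -1.74.

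Between PLX3397 and vehicle no difference in the 32 genes passed the threshold. At 30 mg/kg against epileptic vehicle, 0 of 32 passed with limma, against 32% of all genes tested (16.3% higher and 15.7% lower), and 1 of 32 had an unadjusted p under 0.05 against 41.5% of all. That gene was Enpp5, at 7.12, 10.34 and 11.38 at 30 mg/kg and at 6.96, 10.15 and 11.11 in epileptic vehicle mice, a difference of 1.02 ± 0.50 (limma adjusted p = 0.112). At its lower level were 1 of 15 mice at 30 mg/kg and 5 of 17 epileptic vehicle mice, and of all mice left out in turn only replicate 12 at 30 mg/kg brought the difference past the threshold. The log2 fold changes of the 32 genes lay between -0.42 and 1.02 with a median size of 0.19, against 0.07 over all genes, and the median standard error was 0.29, against 0.04.

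At 3 mg/kg against epileptic vehicle, which shares the vehicle mice with the comparison before, 0 of 32 passed with limma against 35.5% of all genes (18.5% higher and 16.9% lower), and 1 had an unadjusted p under 0.05 against 43.5% of all. This was Dusp7, at 8.15, 9.83 and 10.66 at 3 mg/kg and at 8.45, 8.89 and 10.44 in epileptic vehicle mice, a difference of 0.54 ± 0.23 (limma adjusted p = 0.063). It passed with median scaling, with a stricter detection filter, with array weights, and without epileptic vehicle replicate 2 or 12 or replicate 4, 15 or 16 at 3 mg/kg. Rpl29, with which it varied, had 13 of 18 mice at its upper level at 3 mg/kg and 8 of 17 in epileptic vehicle mice. With 30 mg/kg set against 3 mg/kg, 0 of 32 passed with limma against 2.17% of all genes (0.92% higher and 1.25% lower), and 0 had an unadjusted p under 0.05 against 16.3% of all. A missed threshold in genes with this spread does not show equal levels: the 95% interval for Enpp5 between 30 mg/kg and epileptic vehicle ran from 0.04 to 1.99, and that for Dusp7 between 3 mg/kg and epileptic vehicle from 0.08 to 0.99. These genes had the smallest p of the 32 in their comparison, and the intervals are not adjusted for the number of genes. The intervals of all other genes of the set in these comparisons with vehicle included 0. That for Zfp365 at 30 mg/kg ran from -0.32 to 1.69.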

How the data were processed

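Hippocampal RNA of 56 mice was hybridised to MouseRef-8 v2 BeadChips, 1 array a mouse. Per the labels, the deposited raw table holds for each array a non-normalized probe intensity and a detection p-value from GenomeStudio 2011.1, and a second deposited table holds log2 values that the authors made with lumi (version not given in the sources used here); these differ from the values used here by at most 0.0437. Intensities were log2 transformed and quantile normalised over all arrays in R 4.3.3 (limma 3.58.1). Of 25697 probes, 23978 were named through the platform annotation and RefSeq (GRCm38.p6) and 1719 had no gene listed; 14058 passed detection p under 0.05 on at least 6 arrays, and the brightest passing probe stood for each of 9893 genes. Probe sequences were not used here.

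Groups came from the sample titles. All 4 groups entered 1 limma model (lmFit, eBayes, Benjamini-Hochberg over all genes), with no covariate. The sample numbers break off at 24 and resume at 33, and the labels do not say why. Up to 24 lay 11 epileptic vehicle, 8 3 mg/kg, 2 30 mg/kg and 3 naive mice, and from 33 on 6, 10, 13 and 3. The main model does not remove a difference between these stretches. A block for them was among the alternatives. Correlations over all mice used the deviations from group means. Those inside the levels of a split signal used the log2 signals, with group means left in. The pipeline was tested on simulated data. The genes and marker lists were chosen with earlier results of these data known. Genes are named if they had a split signal, belonged to a group of at least 3 or a neighbouring pair, were called, lay nearest the SD limit or among the 10 largest smallest-group SDs, had another passing probe or stood in a marker list; genes outside the set are named only where a result turns on them. Results were recomputed on the deposited lumi values, with normexp, with median scaling, with other detection filters, the mean of a gene's probes, another measure of spread, mixtures (mclust 6.1.1), array weights, blocks, other model options and each mouse left out; leaving out the 2 arrays least like the rest was added after seeing the data.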

Additional observations from a re-analysis of the deposited data

Results flagged for a closer look

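In the naive group of 6 mice, 5 of the 32 genes had 1 mouse whose gap to its nearest neighbour took up more of the group's range than Dixon's limit for 6 values allows; chance gives this in about 1 in 20 groups of ordinary values, a rate that does not apply here because the genes were chosen for their spread in these same mice. Naive replicate 5 was far above the other naive mice in Rpl29, at 10.92 with the next at 8.82 (0.98 of the range), and in Dusp7, at 10.62 with the next at 9.19 (0.77). The same mouse was lowest in Slc25a18, at 8.03 with the next at 10.20 (0.69). Naive replicate 3 was highest in Tomm22, at 9.46 with the next at 7.08 (0.92), and naive replicate 4 was lowest in Enpp5, at 7.18 with the next at 10.19 (0.74). In Rpl29, Slc25a18, Tomm22 and Enpp5 the flagged mouse was the only naive mouse at its level of the split signal. Dusp7 varied with Rpl29.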

How the results depend on the processing

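The number of genes with an SD of at least 0.5 in every group changed with the background correction, the measure of spread and the removal of set means. Normexp background correction, which stretches low signals, gave 134 genes with all 32 among them, the scaled median absolute deviation gave 4, and removing set means of sample numbers within groups gave 17, of which 14 were shared. Leaving out single mice gave 27 to 34 genes, and 12 of the 32 stayed whichever mouse was left out. Split signals numbered 12 with a gap of at least 0.75 and 15 to 22 under the other alternatives.

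In epileptic vehicle against naive mice 3 genes were called with no detection filter, where more genes are tested, and 3 to 6 without single mice, with the count of 3 found without naive replicate 2 or 3. At 30 mg/kg against epileptic vehicle, leaving out single mice gave 0 to 1, and at 3 mg/kg against epileptic vehicle it also gave 0 to 1. In that last comparison median scaling, the stricter detection filter and array weights each called 1 gene, Dusp7; the cause was not tested. At 30 mg/kg against 3 mg/kg the count was 0 in every alternative and without every mouse. Bgn and Ccdc3 kept their call and direction under all alternatives. Rpl29 lost it with median scaling (0.84), the block of sample-number sets (0.75) and the replicate block.

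Replicate numbers gave no sign of pairing the mice: over 65 pairs with the same number in different groups the correlation of deviations had a median of 0.05, with 19 over 0.1, and 2 of 56 mice correlated best with their own number. With the replicate block 5 genes were called in epileptic vehicle against naive mice, 3 of them the same, with Zfp365 at an adjusted p of 0.0517 and Rpl29 at 0.0841, and 0 in the other comparisons. In 12 of the 19 split signals the lower level was not detected in every mouse, so that values there have no reliable order.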
